A study of Homo sapiens with 6 samples.

Results

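The genes described are 3 receptor tyrosine kinases, ERBB2, FGFR2 and MET, and 3 growth factor ligands, PDGFA, PDGFB and IGF1. They were taken by name from the 89 genes of a PCR array of cancer pathway genes, and all 6 matched a RefSeq gene symbol. Earlier results of these data were known when they were chosen. RNA came from Panc-1, an established line of human pancreatic cancer cells, in 3 conditions with 2 plates each. Driver cells carried the tet-on driver construct alone and received doxycycline. Non-induced cells carried the driver together with an inducible full-length human CaSm and received no doxycycline. Induced cells were these same tet-on CaSm cells with doxycycline. Where doxycycline was given the dose was 1 µg/mL, and the culture time was 4 weeks in every condition. CaSm, encoded by LSM1, is an Sm-like protein that takes part in mRNA decapping and decay, and its own transcript was not analysed here. Both lines are stably transfected pools, and the tet-on CaSm pool was derived from the driver pool with a further selection, so comparisons with driver cells differ in construct as well as in CaSm induction. Non-induced cells differ from driver cells in both construct and doxycycline, and those 2 differences cannot be told apart in that comparison. Induced cells differ from non-induced cells in doxycycline itself as well as in CaSm induction, and these cannot be told apart there either.

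A receptor tyrosine kinase binds a ligand outside the cell, pairs with another receptor molecule and phosphorylates tyrosines on its inner part, from which signals pass to the RAS and mitogen-activated protein kinase route and to phosphatidylinositol 3-kinase and AKT. ERBB2 (HER2) has no known ligand of its own and acts by pairing with other receptors of the EGF receptor family. FGFR2 binds fibroblast growth factors, and MET binds hepatocyte growth factor and is widely studied in the invasion of pancreatic cancer. PDGFA and PDGFB encode the chains of platelet-derived growth factor, which acts mainly on fibroblasts and other mesenchymal cells, and IGF1 encodes insulin-like growth factor 1, made chiefly by liver and stromal cells.

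Each sample title carries a tag, and plates of different conditions share tags. The 3 tags are numbered here as runs and serve as replicate numbers, although the labels do not say what a tag stands for: 2 and 3 for the driver plates, and 1 and 2 for the non-induced and for the induced plates. The methods speak of plates run for each condition, and a legend of the supplement on RNA quality lists 1 RNA per condition. Neither says that replicate plates represent independent cultures, and the p-values then measure a spread that may be technical only. The value deposited for each gene is the threshold cycle (Ct), at which the PCR product crosses the detection threshold, and a later Ct means less template. Values above 35 were set to 35, and ΔCt is the Ct after subtraction of the plate's own average for 3 normalizing genes (B2M, HPRT1, GAPDH), so 1 cycle of ΔCt stands for about 1 log2 unit. That average lay between 19.7 and 20.3 on the 6 plates. Log2 fold changes are differences of mean −ΔCt, and p-values are from limma over all genes tested, with Benjamini-Hochberg adjustment. A two-sided exact permutation test cannot go below 0.333 with 2 plates against 2, or below 0.0667 with 2 against 4, and was therefore not used on single genes. Over the 79 genes with a Ct under 35 on all plates, the median gap between the induced plates was 0.34 log2 units, with replicate 1 higher for 78.5% of these genes. As a check of the cell line, CDKN2A, which is known to be deleted in Panc-1, came up late, at a Ct of 32.1 to 33.9, but was under 35 on all 6 plates. TEK, an endothelial receptor, was above 35 on 4 plates, and GZMA, of cytotoxic lymphocytes, was above 35 on 5. What gave the late CDKN2A signal was not tested.

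Transcripts of 5 of the 6 genes were detected under a Ct of 35 on every plate. Raw Ct values ranged from 22.3 to 23.2 for MET, 22.7 to 22.9 for PDGFB, 26.1 to 27.5 for PDGFA, 26.8 to 27.9 for FGFR2 and 27.0 to 28.2 for ERBB2. IGF1 came up at 34.0 to 36.0 and exceeded 35 on 1 non-induced and 1 induced plate. Each assay has its own efficiency, so these cycles do not rank the genes by transcript number.

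**Figure D1:**
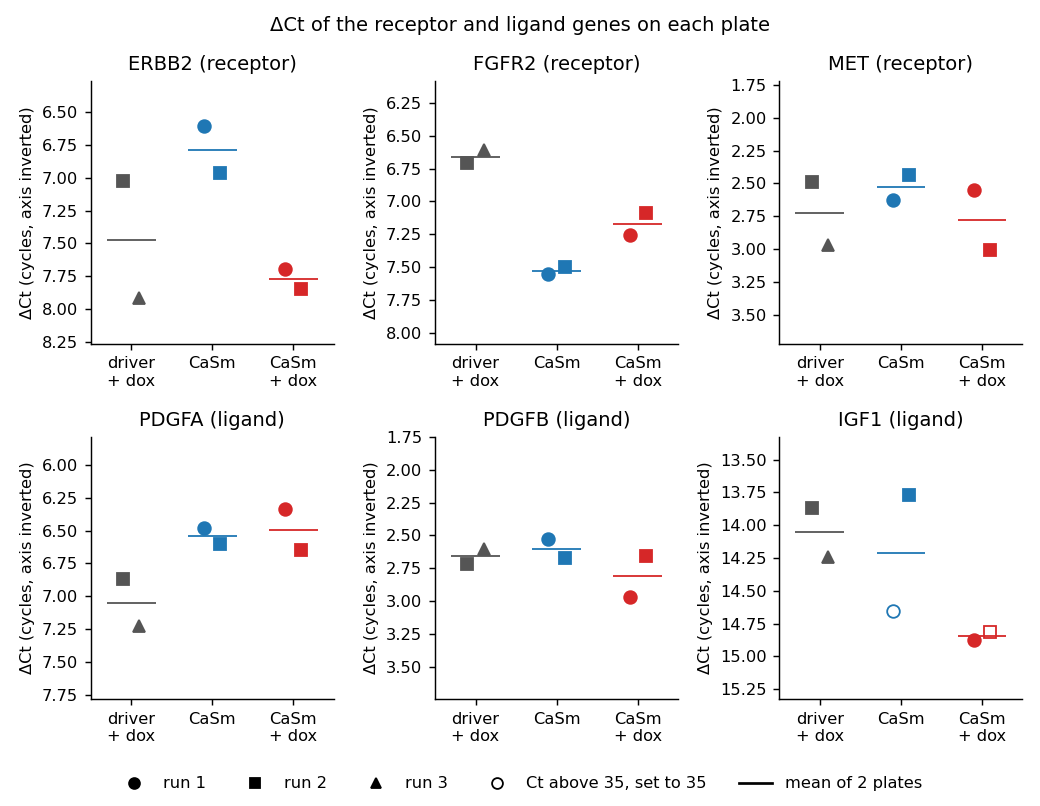
ΔCt in cycles of the 3 receptor and 3 ligand genes on each plate, with the axis inverted so that a higher level stands higher and every panel spanning the same number of cycles. Symbols give the run, colours the condition (driver with doxycycline, tet-on CaSm without, tet-on CaSm with doxycycline), lines the mean of the 2 plates and open symbols a Ct above 35. Both ERBB2 points of induced cells, at 7.70 and 7.85, lie below both non-induced points. FGFR2 points of the 3 conditions do not overlap under this normalization.

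ERBB2 was lower in induced cells than in non-induced cells. Its ΔCt was 6.61 and 6.96 in non-induced cells, 7.03 and 7.92 in driver cells, and 7.70 and 7.85 in induced cells. Both induced plates were lower in level than both non-induced plates, while the driver plates fell on either side of the induced ones. ERBB2 fell by 0.99 on the log2 scale from non-induced to induced cells (SE 0.31, 95% interval −1.67 to −0.31), a 1.98-fold difference with an adjusted p of 0.0415. The difference was −1.09 between the plates of run 1 and −0.88 between those of run 2. The call was made in 7 of 13 other settings, including a crossed pairing of runs that was added after seeing the data. Leaving out either non-induced plate or induced replicate 2 ended it. Without those plates in turn the value was −0.81, −1.17 and −0.91, with adjusted p of 0.258, 0.119 and 0.110.

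Against driver cells the ERBB2 difference of induced cells was −0.30 (SE 0.31, 95% interval −0.98 to 0.38, adjusted p = 0.559), and −0.82 within run 2. Against both controls it was −0.64 (SE 0.27), with an unadjusted p of 0.0353 and an adjusted p of 0.103. Leaving out each plate in turn gave −0.87 to −0.42 for this last difference. The extremes came without driver replicate 3 and without driver replicate 2. With all plates kept, ERBB2 passed against both controls in 3 of 12 other settings, again including the crossed pairing added after seeing the data. Non-induced cells had more ERBB2 than driver cells by 0.69 (SE 0.31, adjusted p = 0.226), but within run 2 the difference was 0.06. The order of mean levels was thus non-induced, driver, induced, and neither neighbouring pair in it differed beyond the threshold.

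FGFR2 had its highest level in driver cells and its lowest in non-induced cells. Its ΔCt was 6.71 and 6.61 in driver cells, 7.26 and 7.09 in induced cells, and 7.56 and 7.50 in non-induced cells. No plate of any condition overlapped with a plate of another. From driver to non-induced cells FGFR2 fell by 0.87 on the log2 scale (SE 0.23, 95% interval −1.38 to −0.36), which is 1.83-fold with an adjusted p of 0.0451. That call was made in 5 of 12 other settings and in none of the 4 fits without a plate of either condition, in which the difference was −0.92 to −0.82 and the adjusted p 0.135 to 0.432. The plates of run 2 alone gave −0.80 for this comparison.

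Induced cells lay between the controls for FGFR2. Their log2 difference from driver cells was −0.51 (SE 0.23, 95% interval −1.02 to −0.003), with an unadjusted p of 0.0488 and an adjusted p of 0.119. Their difference from non-induced cells was 0.36 (SE 0.23, 95% interval −0.15 to 0.87, adjusted p = 0.284). Against both controls the difference was −0.08 (SE 0.20, adjusted p = 0.770). Neither neighbouring pair in the order driver, induced, non-induced passed the threshold, although the plates of each pair were apart. This order of means held with HPRT1 alone, GAPDH alone and the median of all genes as the normalizer, but not with B2M alone. With B2M alone induced cells differed from non-induced cells by −0.045. With GAPDH alone the order held, but induced cells differed from driver cells by only −0.12.

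MET varied more between the driver plates and between the induced plates than between condition means, but not between the non-induced plates. Its ΔCt was 2.63 and 2.43 in non-induced cells, 2.49 and 2.97 in driver cells, and 2.55 and 3.01 in induced cells. All 3 conditions overlapped. The difference of induced cells was −0.05 from driver cells (SE 0.27, 95% interval −0.65 to 0.55, adjusted p = 0.883) and −0.25 from non-induced cells (SE 0.27, 95% interval −0.85 to 0.35, adjusted p = 0.532). Changes of up to about 0.85 on the log2 scale lie within these intervals.

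Among the ligands, PDGFA was lower in driver cells than in either tet-on CaSm condition, but by an amount that did not pass the threshold. Its ΔCt was 6.87 and 7.23 in driver cells, 6.48 and 6.60 in non-induced cells, and 6.34 and 6.65 in induced cells. Both driver plates were lower in level than the 4 tet-on CaSm plates, and the 2 tet-on CaSm conditions overlapped. PDGFA was 0.56 higher in induced than in driver cells (SE 0.25, 95% interval 0.004 to 1.11), a 1.47-fold difference with an unadjusted p of 0.0487 and an adjusted p of 0.119. Non-induced cells were 0.51 above driver cells (SE 0.25, adjusted p = 0.251). Within run 2 these differences were 0.22 and 0.26. Induced and non-induced cells differed by 0.05 (SE 0.25, 95% interval −0.50 to 0.60, adjusted p = 0.917).

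PDGFB had the smallest spread of raw Ct over the 6 plates among the 79 genes under 35 on all plates. Its Ct was 22.87 and 22.85 in non-induced cells, 22.81 and 22.83 in driver cells, and 22.70 and 22.84 in induced cells, a range of 0.17 cycles. The next gene, CDK4, had a range of 0.29, the median gene 1.16, and the normalizing genes HPRT1, GAPDH and B2M 0.46, 0.58 and 1.08. After normalization the ΔCt of PDGFB was 2.53 and 2.67 in non-induced cells, 2.72 and 2.60 in driver cells, and 2.97 and 2.66 in induced cells. Most of this range of 0.44 came from induced replicate 1, the plate on which the normalizing mean was earliest. PDGFB differed by −0.15 from driver cells (SE 0.24, 95% interval −0.68 to 0.38, adjusted p = 0.692) and by −0.21 from non-induced cells (SE 0.24, 95% interval −0.74 to 0.32, adjusted p = 0.532). Equal Ct values on plates with unequal input are not equal levels, and the input of each plate was not measured apart from the normalizing genes.

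**Figure D2:**
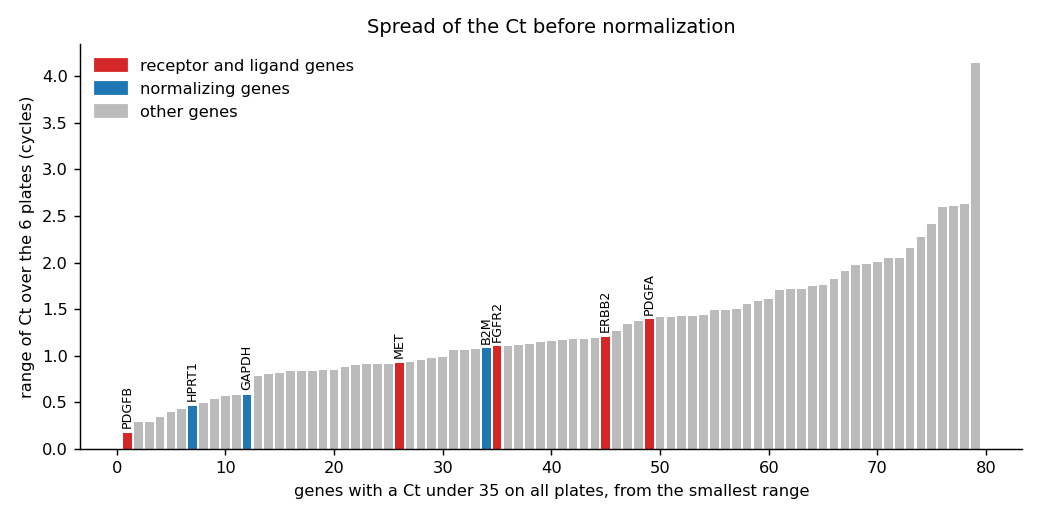
Range of the raw Ct in cycles over the 6 plates for each of the 79 genes under a Ct of 35 on all plates, in order of the range. Each bar is a gene, with the receptor and ligand genes in red and the normalizing genes in blue. PDGFB, at 0.17 cycles, stands first, and MET, FGFR2, ERBB2 and PDGFA lie between 0.92 and 1.39.

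IGF1 was near the limit of detection. Its raw Ct was 36.00 and 33.95 in non-induced cells, 33.96 and 34.47 in driver cells, and 34.61 and 35.88 in induced cells. All of these were later than any Ct of CDKN2A (32.11 to 33.86), which is known to be deleted in Panc-1. What gave the late IGF1 signal was not tested. With values above 35 set to 35, its ΔCt was 14.66 and 13.77 in non-induced cells, 13.87 and 14.24 in driver cells, and 14.88 and 14.82 in induced cells. Non-induced replicate 1 and induced replicate 2 have only an upper bound on their level, so they have no order among themselves or against lower plates. Both induced plates were lower in level than both driver plates, whereas non-induced cells had 1 plate above the induced ones and 1 that cannot be ranked. Without the limit the ΔCt of these 2 plates would be 15.66 and 15.70, against 14.88 in induced replicate 1. The difference of induced cells was −0.79 from driver cells (SE 0.31, 95% interval −1.47 to −0.12), with an unadjusted p of 0.0256 and an adjusted p of 0.0843. It was −0.63 from non-induced cells (SE 0.31, adjusted p = 0.167) and −0.71 from both controls (SE 0.27, unadjusted p = 0.0216, adjusted p = 0.0764). Leaving out each plate in turn gave differences from both controls of −0.93 to −0.49. The extremes came without non-induced replicate 1 and without non-induced replicate 2. Under a Ct limit of 40 the difference from driver cells was −1.23, with an adjusted p of 0.242.

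Few of the 6 genes passed the threshold of an adjusted p under 0.05 in any comparison. Against driver cells, 0 of 6 passed by limma, 3 had an unadjusted p under 0.05, and 23.5% of the 85 genes tested passed. By the methods' test 0 of the 6 also passed. The induced and driver plates did not overlap for FGFR2, PDGFA and IGF1, against 52.9% of all genes tested. A plate above a Ct of 35 was counted as apart only where its bound alone set it apart. Against non-induced cells 1 of 6 passed, ERBB2, beside 25.3% of the 83 genes tested. By the methods' test ERBB2 had a p of 0.0364 before adjustment, and 0 of the 83 genes passed after it. The plates did not overlap for ERBB2 and FGFR2, beside 56.6% of all genes. Against both controls 0 of 6 passed by limma, 2 had an unadjusted p under 0.05, and 22.4% of 85 genes passed. The methods' test with adjustment called 0 of the 6 there as well, beside 5 of the 85 genes. For 0 of the 6 did the induced plates lie apart from all 4 control plates, beside 34.1% of all genes. Between non-induced and driver cells 1 of 6 passed, FGFR2, beside 7.06% of genes. The plates did not overlap for ERBB2, FGFR2 and PDGFA, beside 49.4% of genes. By the methods' test FGFR2 had a p of 0.00399 there before adjustment, and 0 of the 85 genes passed after it. The comparisons share plates and are not independent of each other.

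**Figure D3:**
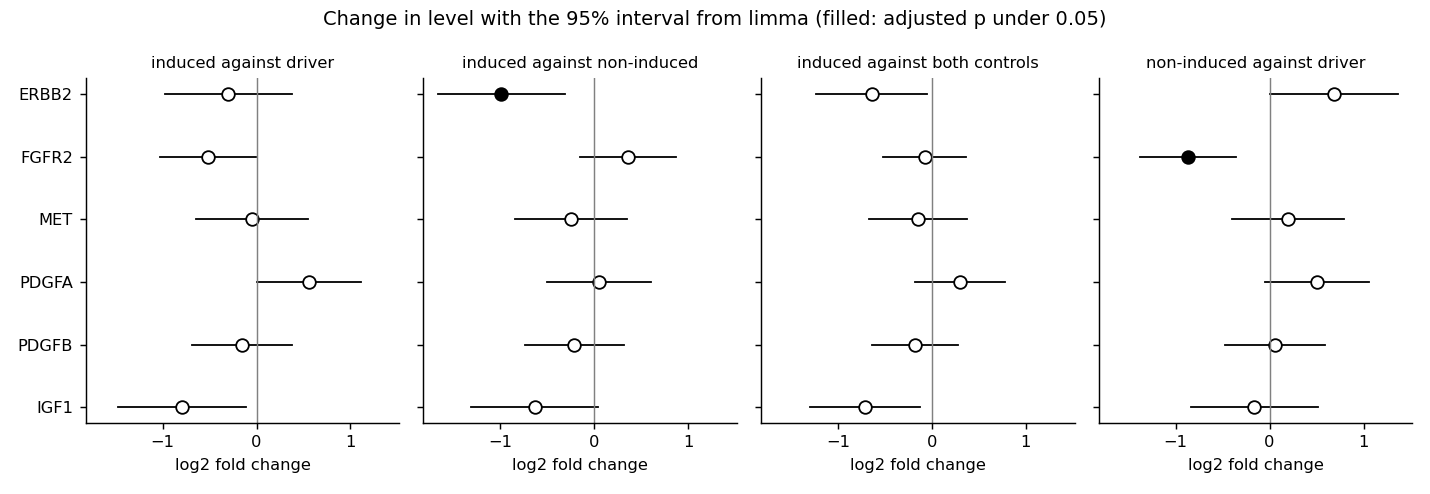
Log2 fold change of each gene in the 4 comparisons, with the 95% interval from limma as a line. Filled points have an adjusted p under 0.05, which was reached by ERBB2 from non-induced to induced cells and by FGFR2 from driver to non-induced cells.

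In the reported fit the 6 genes did not all change in one direction. Relative to driver cells 1 was higher and 5 were lower in induced cells, with a median of −0.23 beside −0.08 over all genes tested. Relative to non-induced cells 2 were higher and 4 lower, with a median of −0.23 beside −0.21. The median size of change without regard to sign was 0.41 against driver cells and 0.30 against non-induced cells, beside 0.43 and 0.42 over all genes.

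The directions of the smaller changes depended on the normalizing gene. B2M itself had a mean ΔCt of 0.10 in induced cells, 0.56 in driver cells and 0.50 in non-induced cells, and GAPDH had −1.78, −2.17 and −2.12. Normalization to B2M alone shifted every gene by −0.47 relative to driver cells and by −0.40 relative to non-induced cells, and normalization to GAPDH alone shifted them by 0.39 and 0.34. With B2M alone, 4 of 6 genes passed against driver cells, all lower (ERBB2, FGFR2, PDGFB and IGF1), among 37 lower of 44 genes called in all. With GAPDH alone 1 passed, PDGFA, which was higher, among 24 higher of 29 genes called. The SE with GAPDH alone was 0.34 for each of the 6 genes, and so did not reflect the spread of a single gene. From non-induced to induced cells the ERBB2 value was below 0 under all 5 normalizations, between −1.39 and −0.65, and passed under 2 of them. From driver to non-induced cells the FGFR2 value was likewise below 0 under all 5, between −1.42 and −0.82, and passed under 3. ERBB2, MET and PDGFB changed sign between induced and driver cells. Their values were −0.765, −0.52 and −0.62 by B2M and 0.095, 0.35 and 0.24 by GAPDH. Against non-induced cells FGFR2 and PDGFA fell below 0 by B2M, at −0.045 and −0.355, and MET and PDGFB rose above 0 by GAPDH.

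**Figure D4:**
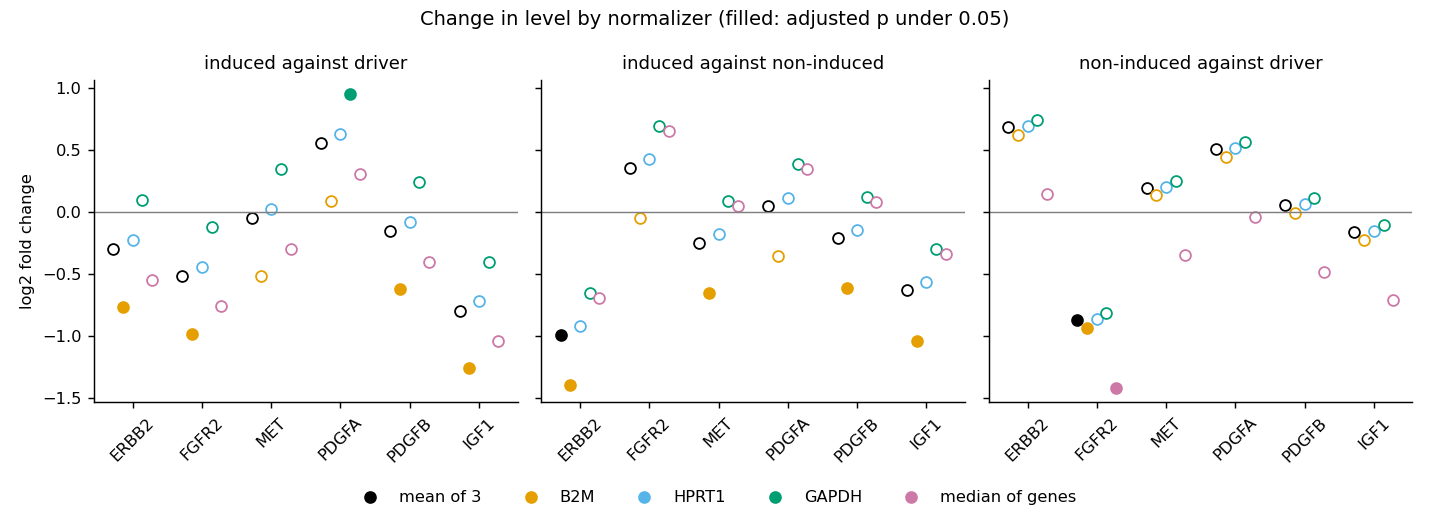
Log2 fold change of each gene when normalized to the mean of B2M, HPRT1 and GAPDH, to each of them alone, or to the median Ct of genes below 35. Filled points have an adjusted p under 0.05. ERBB2 stays below 0 from non-induced to induced cells and FGFR2 stays below 0 from driver to non-induced cells. ERBB2, MET and PDGFB cross 0 between induced and driver cells, and FGFR2, MET, PDGFA and PDGFB cross 0 between induced and non-induced cells.

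Differences of Ct between genes on the same plate do not use any normalizing gene. They were calculated for the 10 pairs among the 5 genes under 35 on all plates. The clearest contrast of the tet-on CaSm conditions was that of ERBB2 and FGFR2. ERBB2 came up 0.95 and 0.54 cycles before FGFR2 in non-induced cells. In induced cells it came up 0.44 and 0.76 cycles after FGFR2, and in driver cells 0.32 and 1.31 cycles after. The mean difference of ERBB2 minus FGFR2 was −0.75 ± 0.29 (SD, n = 2) in non-induced cells and 0.60 ± 0.23 (SD, n = 2) in induced cells, a change of 1.35 cycles. The induced and driver plates overlapped for this pair.

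The difference between ERBB2 and PDGFA was larger on both induced plates than on all 4 control plates. ERBB2 minus PDGFA was 1.36 and 1.20 cycles in induced cells, 0.13 and 0.36 in non-induced cells, and 0.16 and 0.69 in driver cells. The mean in induced cells was 0.95 cycles above that of the controls. MET minus PDGFA did the same by a smaller amount, with −3.79 and −3.64 cycles in induced cells, −3.85 and −4.17 in non-induced cells, and −4.38 and −4.26 in driver cells. Thus relative to PDGFA both of these receptors were lower in induced cells than on any control plate. FGFR2 minus PDGFA did not do so, with 0.92 and 0.44 cycles in induced cells against 1.08 and 0.90 in non-induced cells. FGFR2 minus PDGFB was closely alike between plates of a condition, with 3.99 and 4.01 cycles in driver cells, 4.29 and 4.43 in induced cells, and 5.03 and 4.83 in non-induced cells.

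Of the 10 pairs, 5 did not overlap between induced and driver cells, beside 71.4% of the 2850 pairs among 76 genes under 35 on all plates. The count was 7 between induced and non-induced cells, beside 69.2% of all pairs, and 2 between induced cells and both controls, beside 52.0%. Between non-induced and driver cells it was 8, beside 56.3%. The pairs share genes and are not independent.

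**Figure D5:**
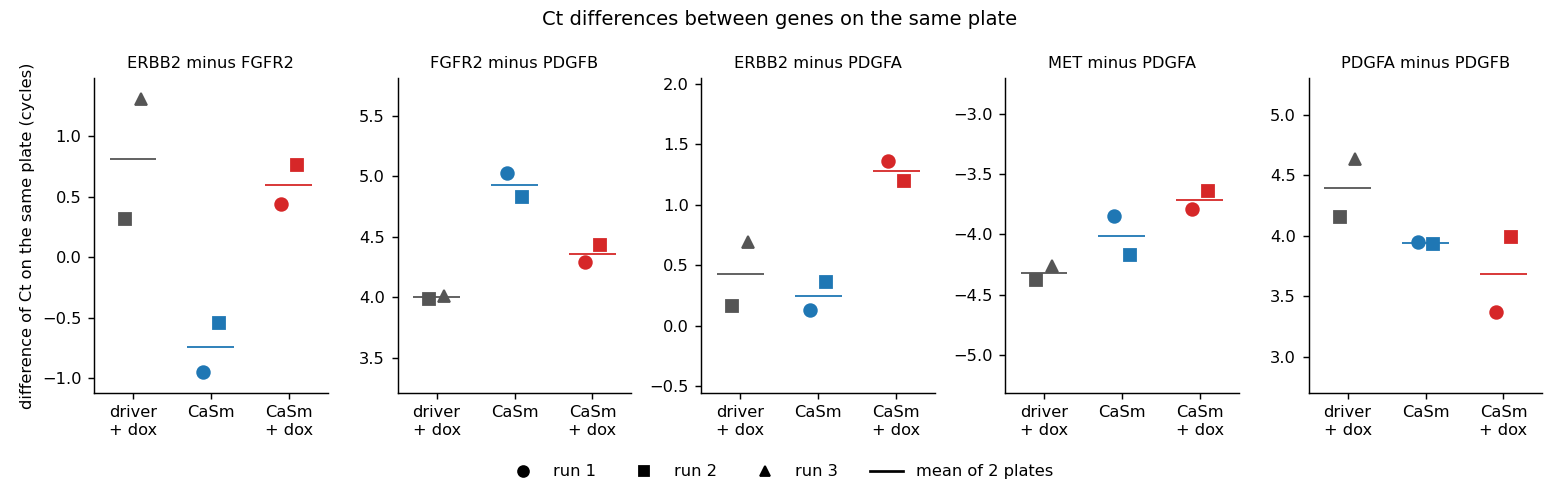
Difference of Ct in cycles between genes on the same plate, for 5 of the 10 pairs, with every panel spanning the same number of cycles. Symbols give the run, colours the condition and lines the mean of 2 plates. ERBB2 minus FGFR2 is below 0 in non-induced cells only, and ERBB2 minus PDGFA is above 1 cycle in induced cells only.

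Other genes of the same signalling routes on the array showed larger changes than the 6 genes in a few cases. They come from lists chosen with earlier results of these data known. Over all genes tested, 23.5% passed against driver cells, 25.3% against non-induced cells and 7.06% between the controls. Among TEK and its ligands ANGPT1 and ANGPT2, which act on endothelium, and VEGFA, the ligand of the endothelial VEGF receptors, VEGFA was the single gene of 4 to pass. It was 1.87 higher in induced than in driver cells (SE 0.25, adjusted p = 0.00066) and 0.84 higher than in non-induced cells (SE 0.25, adjusted p = 0.0367). VEGFA was also 1.03 higher in non-induced than in driver cells (SE 0.25, adjusted p = 0.0284). TEK and ANGPT1 exceeded a Ct of 35 on some plates.

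Of the kinases that carry the signal inward, AKT1, PIK3R1 (the regulatory subunit of phosphatidylinositol 3-kinase) and MAP2K1, none of 3 passed against driver cells by limma, with an adjusted p of 0.111 to 0.724, and 1, MAP2K1, had an unadjusted p under 0.05. Relative to non-induced cells PIK3R1 fell by 0.92 (SE 0.28, adjusted p = 0.0367). Of the transcription factors that respond to growth factors, FOS, JUN, MYC and ETS2, 1 rose and 1 fell against driver cells. Among all genes 23.5% passed in that comparison. MYC was 2.83-fold higher (adjusted p = 0.00488) and ETS2 fell by 1.72 on the log2 scale (SE 0.23, adjusted p = 0.00066). Against non-induced cells FOS fell by 1.05 (SE 0.30, adjusted p = 0.0340) and ETS2 fell by 1.23 (SE 0.23, adjusted p = 0.00461), while MYC was 0.70 higher without passing (SE 0.31, adjusted p = 0.134). Against both controls VEGFA and MYC were higher and FOS and ETS2 lower. Against driver cells ETS2 was called in 12 of 12 other settings, VEGFA in 11 and MYC in 9. Against non-induced cells ETS2 was called in 12 of 13, FOS in 8, and VEGFA and PIK3R1 in 7 each, and between the controls VEGFA was called in 6 of 12. Against both controls ETS2 was called in 12 of 12, VEGFA in 10, MYC in 9 and FOS in 7.

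The genes with the pattern most like that of each member were found among 71 genes over the 6 plates, by the root mean square difference of their ΔCt after centring each gene on its mean. PDGFB was closest to CDK4, a cell cycle kinase, at 0.045 cycles, and to TNFRSF1A at 0.061. PDGFA was closest to CFLAR, an inhibitor of death receptor signalling, at 0.059 cycles, and to MTA1 at 0.100. MET was closest to CHEK2, a DNA damage checkpoint kinase, at 0.097 cycles, and to BRCA1 at 0.133. ERBB2 was closest to MTA2 at 0.182 cycles and to PIK3R1 at 0.183, and FGFR2 to SERPINB5 at 0.236 and NFKBIA at 0.264. FGFR2 thus had the least similar nearest gene of the 5. Genes that vary little are near many others. The normalizing mean of each plate is subtracted from both genes and cancels in these distances. IGF1 was left out because of its plates above 35.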

How the data were processed

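RNA of Panc-1 cells was reverse transcribed and measured by SYBR Green PCR on array plates, 2 for each of 3 conditions. The Ct values the authors deposited, for 89 genes a plate, are PCR cycles without normalization. A second deposited table holds fold changes from the authors' own comparisons and was not used. Primer sequences and the rule for setting the threshold are not given in the sources used here. Samples were grouped by their labels. Following the methods, the plate mean of B2M, HPRT1 and GAPDH was subtracted. The limit of 35, to which later Ct values were set, was chosen here, as the methods state none. A linear model of −ΔCt with 3 condition means and 3 residual degrees of freedom was fitted with limma 3.58.1 (R 4.3.3) to the 6 plates together, and p-values were adjusted by Benjamini-Hochberg over 85 genes, or 83 against non-induced cells. Genes at 35 on every plate compared and the normalizing genes were not tested. Precision is limited by the number of plates. The fit was tested on simulated data. Python 3.11.15, pandas 2.3.3 and matplotlib 3.10.9 were used for the rest.

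The text names the 6 genes, called genes of 3 pathway lists (1 listed gene is not reported here), 2 nearest genes for each member, and 3 marker genes. The members and lists were chosen with earlier results of these data known. Alternatives were each normalizing gene alone, the median of all genes, a Ct limit of 40, genes with a mean Ct under 30, no filter, a block for the run, the plates compared alone, no moderation, a variance trend, the methods' test (Student's test per gene), averaging on the linear scale, run 2 alone and leaving out each plate. The p-values of the methods' test were adjusted in the same way as those of limma, a step the methods do not mention. Run 1 alone and a crossed pairing were added after seeing the data.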

Additional observations from a re-analysis of the deposited data

How the results depend on the processing

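Direction and side of the threshold were compared with the reported values for each gene, comparison and setting. Of 290 values tested in settings that left out no single plate, 243 kept both, 19 changed sign, 13 lost the threshold and 15 reached it. Of 54 values without a test, from linear averaging or 1 run alone, 16 moved by more than the plate SD and 7 changed sign. With run 2 alone those were PDGFB against driver cells (0.06), PDGFA (−0.043) and PDGFB (0.017) against non-induced cells, FGFR2 (0.018) and PDGFB (0.038) against both controls and IGF1 between the controls (0.093), and with run 1 alone MET against non-induced cells (0.08). The number of the 6 genes called against driver cells went from 0 to 4 with B2M alone and 1 with GAPDH alone. Against non-induced cells it went from 1 to 4 with B2M alone and to 0 with HPRT1 alone, GAPDH alone, the median of all genes, a Ct limit of 40, no moderation or the methods' test. Against both controls it went from 0 to 5 with B2M alone. Between non-induced and driver cells it went from 1 to 0 with HPRT1 alone, GAPDH alone, a Ct limit of 40, no moderation, a variance trend or the methods' test. Leaving out each plate gave 0 to 1 against non-induced cells, 0 to 2 against both controls (IGF1 without non-induced replicate 1, ERBB2 and IGF1 without driver replicate 3) and 0 to 1 between the controls. The cause of these changes was not tested beyond the shifts by normalizing gene given above.

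The conditions share run tags, but the labels do not say that a tag marks a shared batch or culture. The deviations of the non-induced and induced plates of a run correlated at −0.17 over 76 genes, those of driver and non-induced plates of run 2 at 0.26, and those of driver and induced plates of run 2 at −0.35. With the run as a replicate block, which leaves 1 residual degree of freedom, the count against both controls became 1 (ERBB2) and that between the controls became 0, while the others stayed at 0 against driver cells and 1 against non-induced cells. The MET difference between the controls became −0.11 with the replicate block. The crossed pairing, chosen after seeing the data, called 1 gene in each of the comparisons with non-induced cells and with both controls.

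Values that changed sign were below the threshold in the reported fit. With GAPDH alone, differences from driver cells became 0.095 for ERBB2, 0.345 for MET and 0.24 for PDGFB, those from non-induced cells 0.09 for MET and 0.125 for PDGFB, and those from both controls 0.288 for FGFR2, 0.218 for MET and 0.183 for PDGFB. With HPRT1 alone MET became 0.025 against driver cells. With B2M alone FGFR2 became −0.045 and PDGFA −0.355 against non-induced cells, PDGFA −0.133 against both controls, and PDGFB −0.005 between the controls. With the median of all genes, which shifted the non-induced to driver comparison by −0.54, MET became 0.05 and PDGFB 0.085 against non-induced cells, and MET −0.345, PDGFA −0.035 and PDGFB −0.485 between the controls. Leaving out each plate gave, against driver cells, −0.75 to 0.15 for ERBB2, −0.29 to 0.19 for MET and −0.31 to 0.0017 for PDGFB. It gave −0.11 to 0.20 for PDGFA against non-induced cells, and −0.16 to 0.0075 for FGFR2 and −0.38 to 0.083 for MET against both controls. Between the controls it gave −0.60 to 0.28 for IGF1, −0.043 to 0.44 for MET and −0.015 to 0.13 for PDGFB.

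Over all genes, the count called against driver cells, 20, became 44 with B2M alone, 11 with HPRT1 alone, 10 under a Ct limit of 40, 11 with only the plates compared, 5 without moderation and 2 by the methods' test. That against non-induced cells, 21, became 42, 6 and 8 under the first 3 of these, 4 without moderation and 0 by the methods' test. Without non-induced replicates 1 or 2 or induced replicate 2 it was 3, 7 and 13. That against both controls, 19, became 57 with B2M alone, 4 without moderation and 5 by the methods' test, and that between the controls, 6, became 2 with HPRT1 alone or the replicate block, 1 with a Ct limit of 40 or without moderation, and 0 by the methods' test. Without non-induced replicates 1 or 2 or driver replicate 3 that last count was 1, 2 and 2, and without either non-induced plate the count against driver cells was 11. With only the plates compared, the fit against both controls is the reported one and has no separate value, and IGF1 has none among genes with a mean Ct under 30. Values near a Ct of 35, as for IGF1, are limited by detection.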
